A study of Mus musculus with 15 samples.

Results

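Hedgehog signalling was examined through 9 genes of the pathway in mouse cumulus, the layer of follicular cells that lies against the oocyte. These were the ligands *Ihh* and *Dhh*, the receptor *Ptch1*, the transducer *Smo*, the transcription factors *Gli1*, *Gli2* and *Gli3*, and the inhibitors *Hhip* and *Sufu*. Members were the probes that carry one of these gene symbols in the log2 table deposited by the authors, which gave 10 probes (*Smo* has 2) among the 20855 gene probes and 15059 gene symbols of that table. The arrays held 39429 gene probes in all, among them 1 further probe of *Hhip* and 1 of *Sufu* that lay outside the table. For these, only the number of arrays in which they were seen is given. Of the 10 member probes, 4 probes of 3 genes (*Ihh*, *Dhh* and both *Smo* probes) were valid, meaning that the scanner software marked them well above background in 4 or more arrays out of 5 in every stage. They were tested among the 17323 valid probes. The other 6 probes were too dim in at least 1 stage and are described by their signal and by the number of arrays in which they were seen.

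Hedgehog ligands are secreted proteins that bind Patched receptors on neighbouring cells. Unbound Patched holds Smoothened inactive, and ligand binding releases it, so that Smoothened, acting in the primary cilium, turns the Gli proteins into activators of transcription. *Ptch1*, *Gli1* and *Hhip* are themselves common targets of the pathway, and their transcripts are widely read as its output. In the ovary, granulosa cells are known to make Indian and Desert hedgehog, and the surrounding theca cells are known to respond to them.

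All samples came from B6CBAF1/J mice, and each of the 15 arrays held RNA from a pool of cumulus cells, with 5 pools for each of 3 stages. NC1 is the cumulus of juvenile mice aged 3 weeks, unexpanded, around prophase I oocytes that are able to resume meiosis yet lack developmental competence. C1 is the unexpanded cumulus of adults aged 8 weeks, around prophase I oocytes that have gained this competence. C2 is the expanded cumulus of superovulated adults of the same age, given PMSG and then hCG, flushed from the oviduct with fully competent metaphase II oocytes. NC1 and C1 oocytes were stripped by pipetting and C2 complexes were dispersed with hyaluronidase, so that age cannot be told apart from stage between NC1 and C1, nor hormone treatment, site of collection and enzyme from stage between C1 and C2. Values are given as log2 of the background-subtracted signal relative to the array median, taken over valid probes, so that 1 unit is a doubling and a value below 0 lies under the array median. A change was called when its limma adjusted p was under 0.01.

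The arrays carried markers of cells other than cumulus cells. The summed level of 11 theca and stroma marker genes was 4.03 to 5.96 at NC1, 3.83 to 4.40 at C1 and 0.58 to 0.87 at C2, and the 8 valid genes of this list were all lower at C2 than at C1. Among its defining markers, *Lum* and *Pdgfra* were well above background in all NC1 and C1 arrays and in 0 of 5 C2 arrays, while *Cyp17a1* was seen in all arrays. The summed level of 10 granulosa and cumulus markers was 8.14 to 8.66 at NC1, 8.23 to 8.41 at C1 and 5.61 to 5.97 at C2. NC1 replicates 1 and 2 stood apart from the other NC1 arrays. They had the highest sums of theca and stroma (5.96 and 5.31), oocyte (5.65 and 5.36) and red blood cell markers. The *Ihh* and *Dhh* changes from NC1 to C1, the *Gli1* differences and the calls of valid member probes are given with and without these arrays. C2 replicates 4 and 5 had the highest oviduct epithelium sums (3.14 and 2.84). Of the 3 valid genes of that list, 0 were called higher and 2 were called lower at C2 than at C1. *Epcam* and *Tppp3* fell by -1.05 and -1.01, and *Ovgp1* changed by 2.28 without a call (limma adjusted p = 0.0343).

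Both ligands were high in the cumulus of prophase I oocytes, with no called change between NC1 and C1, and fell steeply in the ovulated cumulus. *Ihh*, Indian hedgehog, had a log2 signal of 4.70, 4.74, 6.01, 5.60 and 5.53 in NC1 replicates 1 to 5. Its signal was 5.80, 4.77, 5.21, 5.54 and 5.09 in the C1 replicates and -1.57, -0.83, -1.44, -2.32 and -0.47 in the C2 replicates. NC1 and C1 arrays overlapped, and each C2 array lay below every one of them, although *Ihh* was still well above background in all 5 C2 arrays. The NC1 mean was 5.32 ± 0.57 (SD, n = 5), the C1 mean 5.28 ± 0.40 and the C2 mean -1.32 ± 0.71. The C2 level was 97.5-fold below C1 (log2 change of -6.61, SE 0.32, limma adjusted p = 7.45e-11), the change ranked 4 by size among the 17323 valid probes. Between NC1 and C1 the change was -0.03 (SE 0.32, 95% interval -0.72 to 0.65, limma adjusted p = 0.981). NC1 replicates 1 and 2 had the lowest NC1 signals, and without both of them this change was -0.43 (limma adjusted p = 0.55). The fall was seen on each of the 4 slides, which were also the 4 scan sessions, with log2 differences of C2 from C1 of -5.76, -6.53, -7.11 and -6.78.

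*Dhh*, Desert hedgehog, followed the same course with a smaller fall. It had a log2 signal of 4.37, 4.14, 4.99, 5.02 and 4.79 in the NC1 replicates, 4.44, 4.39, 4.72, 4.61 and 4.78 in the C1 replicates and 0.79, 0.65, 0.20, 0.37 and 0.47 in the C2 replicates. All 5 C2 arrays lay below the lowest C1 array, and the NC1 and C1 arrays overlapped. The NC1 mean was 4.66 ± 0.39 (SD, n = 5), the C1 mean 4.59 ± 0.17 and the C2 mean 0.50 ± 0.23. The C2 level was 17.0-fold below C1 (log2 change of -4.09, SE 0.17, limma adjusted p = 1.18e-11, rank 76 by size), and the 95% interval of the change from NC1 to C1 was -0.43 to 0.28 (limma adjusted p = 0.887). That change was -0.08, and -0.35 (limma adjusted p = 0.236) without NC1 replicates 1 and 2, which had the lowest NC1 signals. Within slides the log2 differences of C2 from C1 were -3.94, -4.58, -4.10 and -3.93.

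The fall was larger for *Ihh* than for *Dhh*. The difference between both probes within an array does not depend on how arrays are scaled, and it served here only to compare changes, not the levels of both genes. It was between 0.31 and 1.37 in the 5 C1 arrays and between -2.69 and -0.94 in the 5 C2 arrays, with no overlap. Its mean changed by -2.52 from C1 to C2 (exact permutation test, two-sided, p = 0.00794, the smallest that 5 arrays against 5 allow, 0.0159 after Benjamini-Hochberg over the 2 steps), and by 0.04 from NC1 to C1 (exact permutation p = 0.889). The granulosa marker sum fell at the same step, and 9 of its 10 genes were lower at C2. Their changes ranged from -4.72 for *Amh* and *Inhbb*, anti-Müllerian hormone and an inhibin subunit, to -1.75 for *Nr5a2*, whereas *Foxl2*, a transcription factor of granulosa identity, changed by 0.03 (limma adjusted p = 0.908). In pooled cells, fewer cells of a type and less RNA per cell cannot be told apart.

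**Figure D1:**
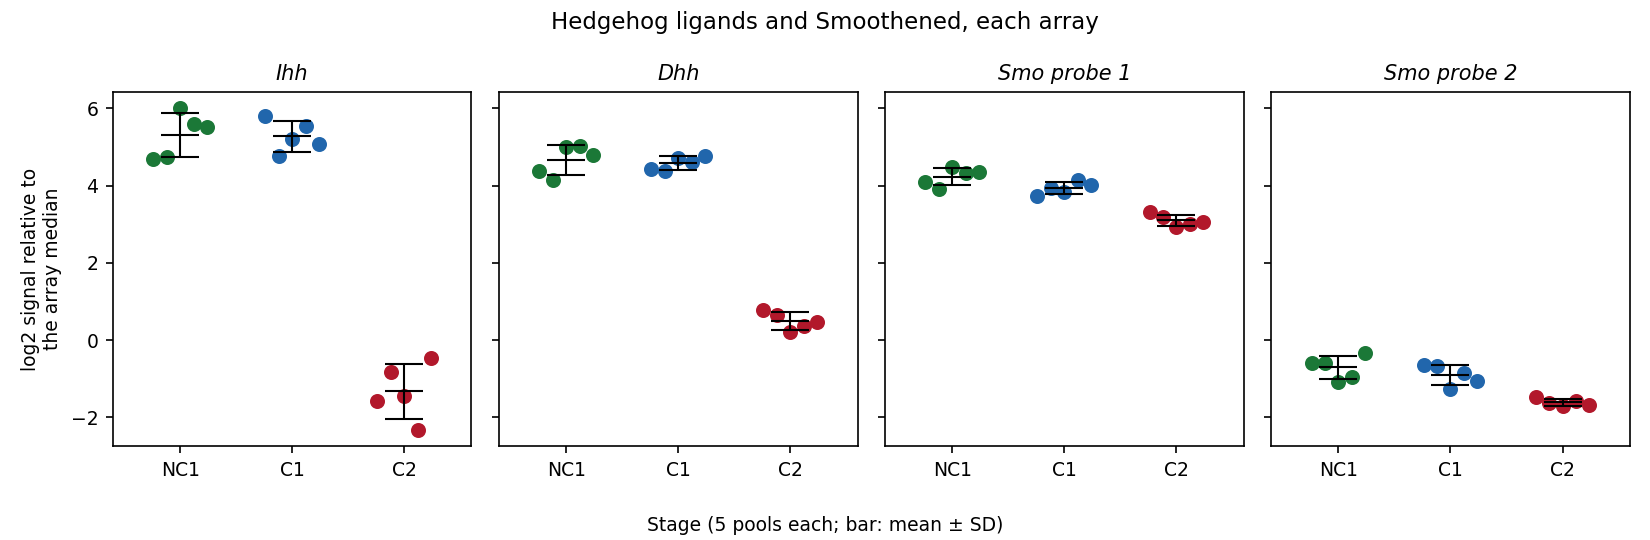
Log2 signal relative to the array median (vertical axis) of *Ihh*, *Dhh* and both *Smo* probes at NC1, C1 and C2. Each point is an array and bars show the mean ± SD of 5 arrays. The C2 arrays of *Ihh* (-2.32 to -0.47) and *Dhh* (0.20 to 0.79) lie far below the C1 arrays, and those of *Smo* lie a little below them. Levels are not comparable between panels.

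The start regions of both ligand genes are shown because these were the members that moved most. RefSeq start regions, from 250 bases before to 50 bases after the annotated start (assembly GRCm38.p6), were at hand for 8 of the 9 members and not for *Gli1*. The region of *Ihh* is chr1:74951623-74951922 on the minus strand and that of *Dhh* is chr15:98898491-98898790 on the minus strand, each written 5′ to 3′ along the gene. Capitals mark the GC box GGGCGG on either strand.
Ihh: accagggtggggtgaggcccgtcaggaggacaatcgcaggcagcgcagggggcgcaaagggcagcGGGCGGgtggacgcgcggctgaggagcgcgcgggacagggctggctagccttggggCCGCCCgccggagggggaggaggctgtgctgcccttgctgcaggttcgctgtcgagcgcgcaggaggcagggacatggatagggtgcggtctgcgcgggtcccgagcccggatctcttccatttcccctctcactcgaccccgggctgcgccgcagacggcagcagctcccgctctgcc
Dhh: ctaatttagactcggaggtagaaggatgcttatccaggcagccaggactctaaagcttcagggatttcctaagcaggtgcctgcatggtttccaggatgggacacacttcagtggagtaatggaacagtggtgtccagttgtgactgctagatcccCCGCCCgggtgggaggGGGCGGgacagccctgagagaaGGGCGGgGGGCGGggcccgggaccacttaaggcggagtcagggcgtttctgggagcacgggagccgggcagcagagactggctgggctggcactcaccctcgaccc

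The *Ihh* region had 2 GC boxes, 30 CpG dinucleotides and 72.7% G or C, and the *Dhh* region had 4 GC boxes, 12 CpG dinucleotides and 61.7% G or C. The median over 32851 mouse start regions of the same length was 7 CpG dinucleotides and 52.7% G or C. A GC box was found in 7 of the 8 member regions (all but *Smo*) and in 35.7% of all regions. The GLI motif GACCACCCA, searched on both strands, was in none of the 8 and in 0.253% of all regions. The NR5A motif AAGGTCA, bound by nuclear receptors of granulosa cells, was in none of the 8 and in 4.72% of all regions. These are letter matches within 300 bases and describe the sequence only.

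Smoothened, the membrane protein that passes the signal on, was lower at C2 than at C1 by less than 2-fold on both of its probes. *Smo* probe 1 had a log2 signal of 4.10, 3.91, 4.48, 4.32 and 4.36 at NC1, 3.74, 3.95, 3.84, 4.16 and 4.02 at C1 and 3.31, 3.20, 2.94, 3.00 and 3.07 at C2. All C2 arrays lay below all C1 arrays, and NC1 and C1 overlapped. The level fell 1.79-fold from C1 to C2 (log2 change of -0.84, SE 0.12, limma adjusted p = 1.85e-05), and the change from NC1 to C1 was -0.29 (SE 0.12, limma adjusted p = 0.229). *Smo* probe 2 ranged from -1.07 to -0.34 at NC1, from -1.27 to -0.65 at C1 and from -1.70 to -1.48 at C2, again with every C2 array below every C1 array. It fell 1.64-fold from C1 to C2 (log2 change of -0.71, SE 0.15, limma adjusted p = 0.000531). Set against NC1, the C2 level was 2.19-fold lower on probe 1 and 1.87-fold lower on probe 2 (limma adjusted p = 5.5e-07 and 4.87e-05). The C1 to C2 calls of both *Smo* probes were lost when arrays were scaled to the median of all gene probes, which put the changes at -0.53 and -0.40 (limma adjusted p = 0.0465 and 0.133) and moved the median of the valid probes by 0.33, and when the deposited log2 table was used (limma adjusted p = 0.0523 and 0.142). With spike-in scaling, probe 1 stayed called and probe 2 changed by -0.86 (limma adjusted p = 0.0114).

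Counted together, the 4 valid member probes were called over the 3 stages by the F-test, as were 51.6% of all valid probes. From NC1 to C1, 0 of the 4 were called, against 2.52% of valid probes, and at an unadjusted p under 0.05 only *Smo* probe 1 had a 95% interval (-0.55 to -0.03) that left out 0. From C1 to C2, all 4 were lower, where 47.6% of valid probes were called and 22.2% were called lower. Their C2 arrays all lay below their C1 arrays, as was the case for 19.9% of valid probes. From NC1 to C2, all 4 were called lower with no overlap, where 51.5% of valid probes were called, 24.9% were called lower and 23.3% were lower with no overlap. A wider filter, which asked for presence in at least 1 stage, held 20844 probes, of which 52.4% were called by the F-test, 2.94% from NC1 to C1, 48.7% from C1 to C2 and 52.4% from NC1 to C2. The other 6 member probes can pass that filter through their brighter stage alone, so they are described by their signals, with no test.

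*Ptch1*, the receptor that restrains Smoothened and a target of the pathway, was near background throughout. Its log2 signal was -3.93, -3.33, -3.85, -3.51 and -3.71 at NC1, -4.76, -3.68, -3.58, -4.19 and -4.38 at C1 and -4.56, -4.73, -4.30, -4.47 and -4.67 at C2. It was well above background in 5, 5 and 3 arrays of these stages. C2 lay below all NC1 arrays, as was the case for 23.3% of valid probes, and overlapped with C1. The mean difference was -0.88 between NC1 and C2 (-0.43 with normexp background correction).

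*Hhip* encodes a membrane protein that binds and sequesters Hedgehog ligands and is induced by them. Its member probe was seen in all NC1 and C1 arrays and in no C2 array. The further *Hhip* probe was seen in 0 NC1, 1 C1 and 0 C2 arrays, so the pattern rests on the member probe alone. The log2 signal of the member probe was -1.96, -2.13, -3.00, -2.47 and -2.98 at NC1 and -3.95, -2.77, -3.16, -0.06 and -3.34 at C1. The C2 signals, between -6.50 and -5.71, were not well above background and give only a bound. Relative to C2, the level was at least 4.39-fold higher in C1 and at least 4.87-fold higher in NC1, counting the C2 arrays at the lowest signal seen above background. With normexp background correction these bounds were 2.86-fold and 2.80-fold. Of all gene probes on the array, 0.733% were seen in every C1 array and no C2 array, and 1.12% in every NC1 array and no C2 array. C1 replicate 4 stood apart at -0.06. This array had the lowest theca and stroma sum of the unexpanded stages (3.83) and the most probes well above background (24493, against 18366 to 22298 in the others), and the part of these in its *Hhip* signal was not tested. Without it, the bound for C1 over C2 was 2.81-fold.

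*Sufu*, which holds Gli proteins in the cytoplasm, was at the edge of detection, in 4, 3 and 3 arrays of NC1, C1 and C2. Its mean was -3.88 ± 0.35 (SD, n = 5), -3.85 ± 0.50 and -4.20 ± 0.40, and the stages overlapped. The further *Sufu* probe was seen in 3, 2 and 2 arrays of these stages.

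**Figure D2:**
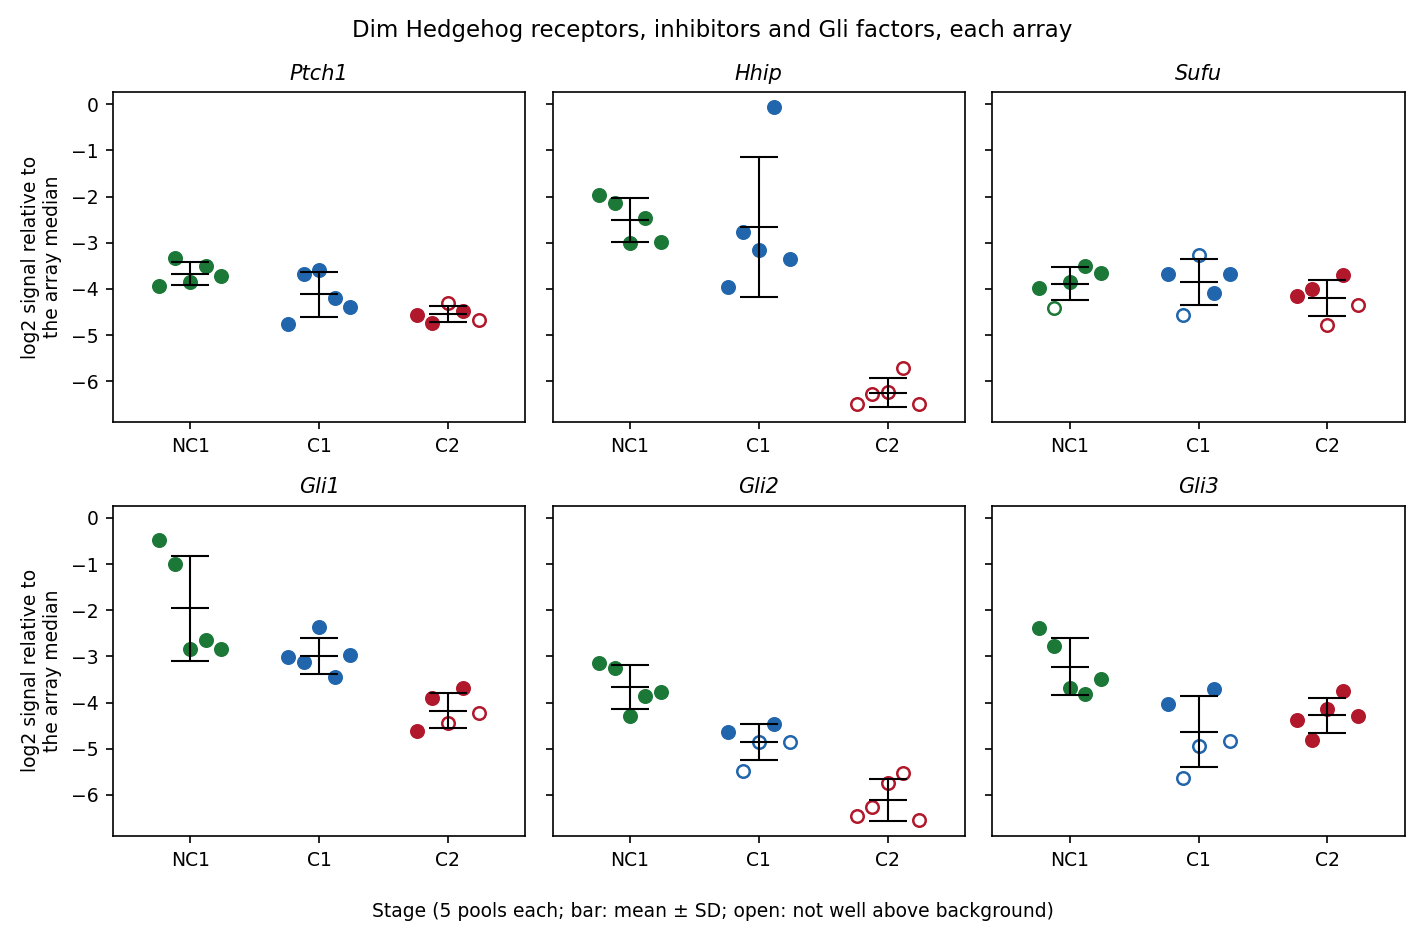
Log2 signal relative to the array median (vertical axis) of the 6 member probes that were dim in at least 1 stage, at NC1, C1 and C2. Each point is an array, open where the probe was not well above background, and bars show the mean ± SD of 5 arrays. *Hhip* and *Gli2* have only open points at C2, and *Gli1* is highest in 2 NC1 arrays (-0.49 and -1.0).

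The Gli factors were dim, and the stages in which they were seen differed. *Gli1*, the activator whose own transcription is a standard readout of the pathway, had a log2 signal of -0.49, -1.0, -2.84, -2.64 and -2.84 at NC1, -3.02, -3.12, -2.37, -3.44 and -2.97 at C1 and -4.61, -3.91, -4.45, -3.68 and -4.23 at C2. It was seen in all NC1 and C1 arrays and in 3 C2 arrays. Every C2 array, with those not well above background counted, lay below every C1 array, as was the case for 19.9% of valid probes. The mean difference was -2.21 between NC1 and C2 (-1.39 with normexp), -1.19 between C1 and C2 (-0.6 with normexp) and -1.02 between NC1 and C1 (-0.78 with normexp). NC1 replicates 1 and 2 set much of the NC1 level: without both of them, the NC1 to C2 difference was -1.40 and that between NC1 and C1 was -0.21.

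*Gli2*, the main activator upstream of *Gli1*, was well above background in 5 NC1, 2 C1 and 0 C2 arrays. Its log2 signal was -3.15, -3.24, -4.29, -3.85 and -3.77 at NC1, -4.64, -5.49, -4.86, -4.46 and -4.86 at C1 and -6.45, -6.25, -5.75, -5.52 and -6.55 at C2. The 2 C1 signals above background lay below all NC1 signals. The C2 level is a bound, relative to which NC1 was at least 2.19-fold higher (1.72-fold with normexp).

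*Gli3*, which acts mostly as a repressor when no ligand is present, was seen in 5 NC1, 2 C1 and 5 C2 arrays. Its log2 signal was -2.38, -2.77, -3.68, -3.81 and -3.48 at NC1, -4.03, -5.64, -4.93, -3.70 and -4.83 at C1 and -4.37, -4.80, -4.14, -3.75 and -4.29 at C2. All stages overlapped, and 3 of the C1 signals were not well above background.

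Several of these dim members followed the theca and stroma sum in part of the arrays. *Gli1*, *Gli2*, *Gli3* and *Hhip* each had their highest NC1 signals in replicates 1 and 2, the arrays with the highest theca and stroma sums, and *Gli1*, *Gli2* and *Hhip* had their lowest signals at C2, where that sum was lowest. *Ptch1* was not so, with its lowest NC1 signal (-3.93) in replicate 1 and its highest (-3.33) in replicate 2. Nor did *Gli2*, *Gli3* and *Hhip* follow the sum within C1. Replicate 4, with the lowest C1 sum (3.83), had their highest C1 signals (-4.46, -3.70 and -0.06). That array also had the lowest C1 signal of *Gli1* (-3.44). *Gli3* was at -4.63 ± 0.77 (SD, n = 5) at C1 and -4.27 ± 0.38 at C2, with overlapping arrays. Among the stroma markers, *Col1a1*, *Col1a2*, *Dcn* and *Acta2* changed by -4.94, -5.52, -4.69 and -4.79 from C1 to C2. Other marker sums moved the same way. NC1 replicates 1 and 2 also had the highest oocyte and red blood cell sums, and the granulosa and cumulus sum was also lowest at C2. Whether the dim members were expressed by cumulus cells or by other cells in the pools was not tested.

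**Figure D3:**
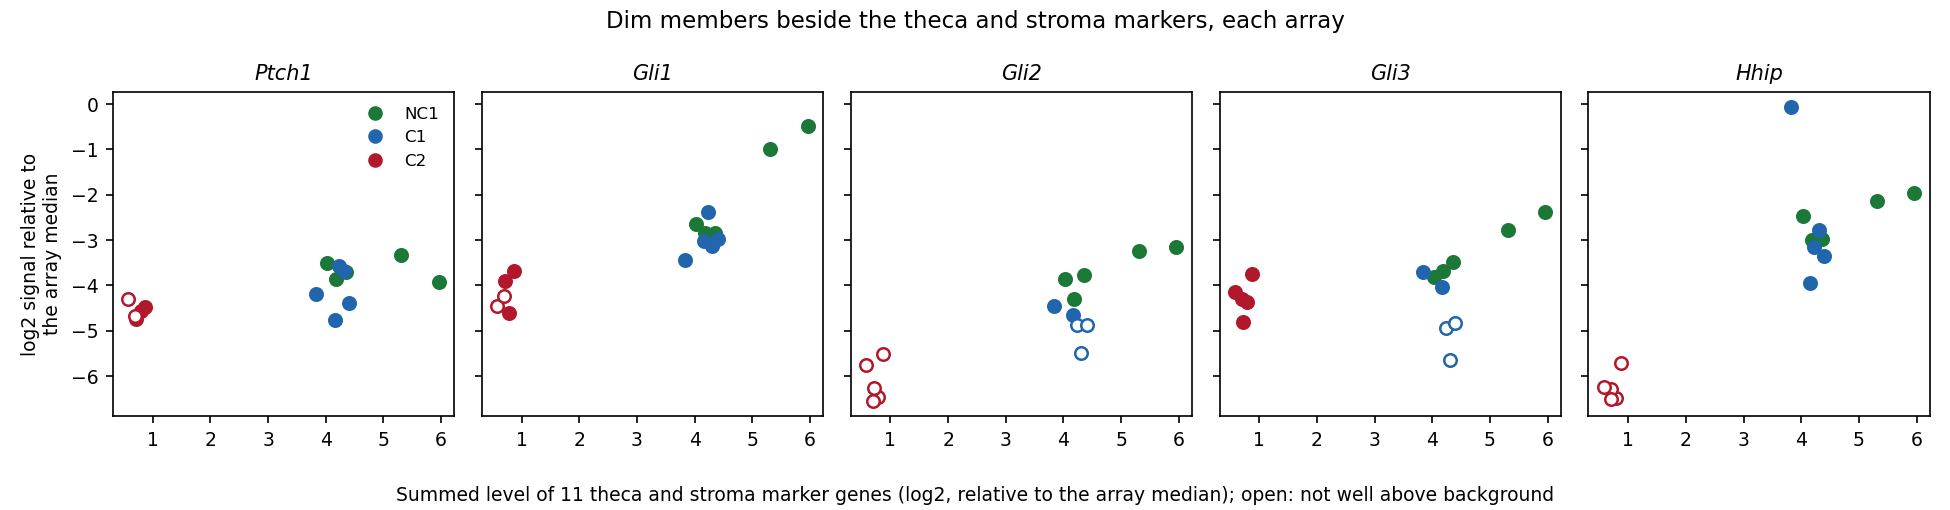
Log2 signal relative to the array median (vertical axis) of *Ptch1*, *Gli1*, *Gli2*, *Gli3* and *Hhip* against the summed level of 11 theca and stroma marker genes (horizontal axis, log2, relative to the array median). Each point is an array, coloured by stage and open where the member was not well above background. C2 arrays lie at sums of 0.58 to 0.87, and the 2 NC1 arrays at the right hold the highest *Gli1*, *Gli2* and *Gli3* signals.

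The genes that release, carry and receive the ligands included members that fell at C2 with *Ihh* and *Dhh* and others that rose. Of 12 genes listed for ligand release and co-reception, 9 were valid. From C1 to C2, 5 were lower, 2 were higher and 2 were not called, with a median change of -1.04, while over all 12680 valid genes 23.5% were lower, 26.1% were higher and the median was 0.02. The lower genes were *Scube1* (-3.57, SE 0.18, limma adjusted p = 1.53e-10), *Scube2* (-2.06), *Scube3* (-1.19), *Cdon* (-1.54) and *Hhat* (-1.04). Scube proteins carry lipid-modified ligand away from the cells that made it, Hhat attaches the palmitate that ligands need, and Cdon is a co-receptor. *Hhat* was just short of the threshold in the deposited log2 table (-0.73, limma adjusted p = 0.0104).

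The co-receptors did not move together. *Boc* rose by 1.61 (SE 0.21, limma adjusted p = 5.48e-06), whereas its relative *Cdon* fell. *Gas1*, another co-receptor, rose by 0.72 (limma adjusted p = 0.00896) on its valid probe, a call lost in 18 of 28 alternatives. Neither of the other 2 *Gas1* probes was valid. One was seen in 3, 5 and 5 arrays of NC1, C1 and C2, with a C1 to C2 difference of 2.53. The other was seen in 0 NC1, 0 C1 and 5 C2 arrays and was at least 2.38-fold higher at C2 than at C1 (1.52-fold with normexp). *Disp1*, which releases ligand from the cell, changed by -0.03 (limma adjusted p = 0.858). *Shh*, the third mammalian ligand, and *Disp2* were not well above background in any array.

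*Scube2* was the single gene of this group called between NC1 and C1, with a change of -1.54 (limma adjusted p = 0.000321), and its mean went from 0.21 ± 0.31 (SD, n = 5) to -1.33 ± 0.10 and then -3.40 ± 0.57. Under each of the 28 alternatives 1 gene of this group was called at this step.

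Among 30 intracellular regulators, 26 were valid, and from C1 to C2 15 were higher and 3 lower, with a median change of 0.50, beside 26.1% higher, 23.5% lower and a median of 0.02 over all valid genes. The largest rises were *Arrb1* (1.96, SE 0.12, limma adjusted p = 1.33e-09), a beta-arrestin that takes part in moving Smoothened, *Spop* (1.38), an adaptor of ubiquitin ligases that target Gli proteins, and *Prkar1a* (1.08), a regulatory subunit of protein kinase A. These values are of each gene's brightest probe, and the other valid probe of *Prkar1a* changed by 0.14 (limma adjusted p = 0.234). Protein kinase A, glycogen synthase kinase and casein kinase mark Gli proteins for processing. Of the glycogen synthase kinase and casein kinase genes, *Gsk3a*, *Csnk1a1*, *Csnk1g1* and *Csnk1g2* rose, by 0.57 to 0.83. The second valid probes of *Csnk1a1* and *Csnk1g1* were not called (0.44 and 0.69, limma adjusted p = 0.275 and 0.195). *Prkacb*, a catalytic subunit of protein kinase A, and *Gsk3b* were not called (-0.21 and 0.24, limma adjusted p = 0.272 and 0.162). The falls were *Evc* (-2.72, SE 0.13, limma adjusted p = 6.29e-11), its partner *Evc2* (-1.79) and *Dlg5* (-0.69). The second valid probe of *Evc2* was not called (-0.71, limma adjusted p = 0.0329). Evc and Evc2 form a complex at the base of the cilium that conveys the signal of active Smoothened. Spike-in scaling left 2 genes of this list higher and 2 lower, with *Arrb1*, *Spop*, *Evc* and *Evc2* still called. Between NC1 and C1 only *Evc2* was called (-0.52, limma adjusted p = 0.00241), and its second valid probe changed by -0.1.

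The primary cilium is the organelle in which Smoothened and Gli proteins act. Of 39 genes of intraflagellar transport and the ciliary gate, 37 were valid, and from C1 to C2 12 were lower, 5 were higher and 20 were not called, with a median of -0.18. The share called was near that over all valid genes, of which 49.5% were called. The largest falls were *Cc2d2a* (-2.50, SE 0.29, limma adjusted p = 1.37e-06), a protein of the ciliary gate, and *Ift88* (-1.24) and *Ift57* (-1.21), both of intraflagellar transport. The largest rises were *Arl13b* (0.88), a small GTPase of the ciliary membrane, and *Ift74* (0.74) and *Ift46* (0.66), also of intraflagellar transport. The balance of this list turned with the scaling, to 8 higher, 6 lower and a median of 0.13 with the median of all gene probes, and to 0 higher and 10 lower with spike-ins. None of the 37 was called between NC1 and C1 by limma.

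Genes that Hedgehog signalling is known to induce in other tissues were mostly lower at C2 among those that could be tested. Of 18 such genes that are no members, 10 were valid, of which 6 were lower and 1 higher from C1 to C2, with a median change of -1.23, while 23.5% of all valid genes were lower and 26.1% higher. *Nr2f2*, one of the 6, is also one of the 8 valid theca and stroma markers, all of which were lower at this step, and the part of those cells in the count was not tested. The largest falls were *Ccnd2* (-3.19, SE 0.16, limma adjusted p = 1.09e-10) and *Ccne1* (-2.37), cyclins that drive entry into the cell cycle, and *Bcl2* (-2.04), which opposes apoptosis. *Bmi1*, a Polycomb protein, had a change of 0.65 on its brighter probe (limma adjusted p = 0.000427, not called with spike-in scaling) and by 0.33 on the other, which was not called (limma adjusted p = 0.0526). *Hsd11b2* was detected in each C1 array but in 0 of 5 C2 arrays, and was at least 5.66-fold higher at C1 (3.61-fold with normexp). *Snai1*, a repressor of epithelial genes that was not valid either, went the other way, seen in 1 NC1, 1 C1 and 5 C2 arrays with means of -5.68, -5.28 and -2.30. These genes also have many other regulators. None was called between NC1 and C1 by limma.

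**Figure D4:**
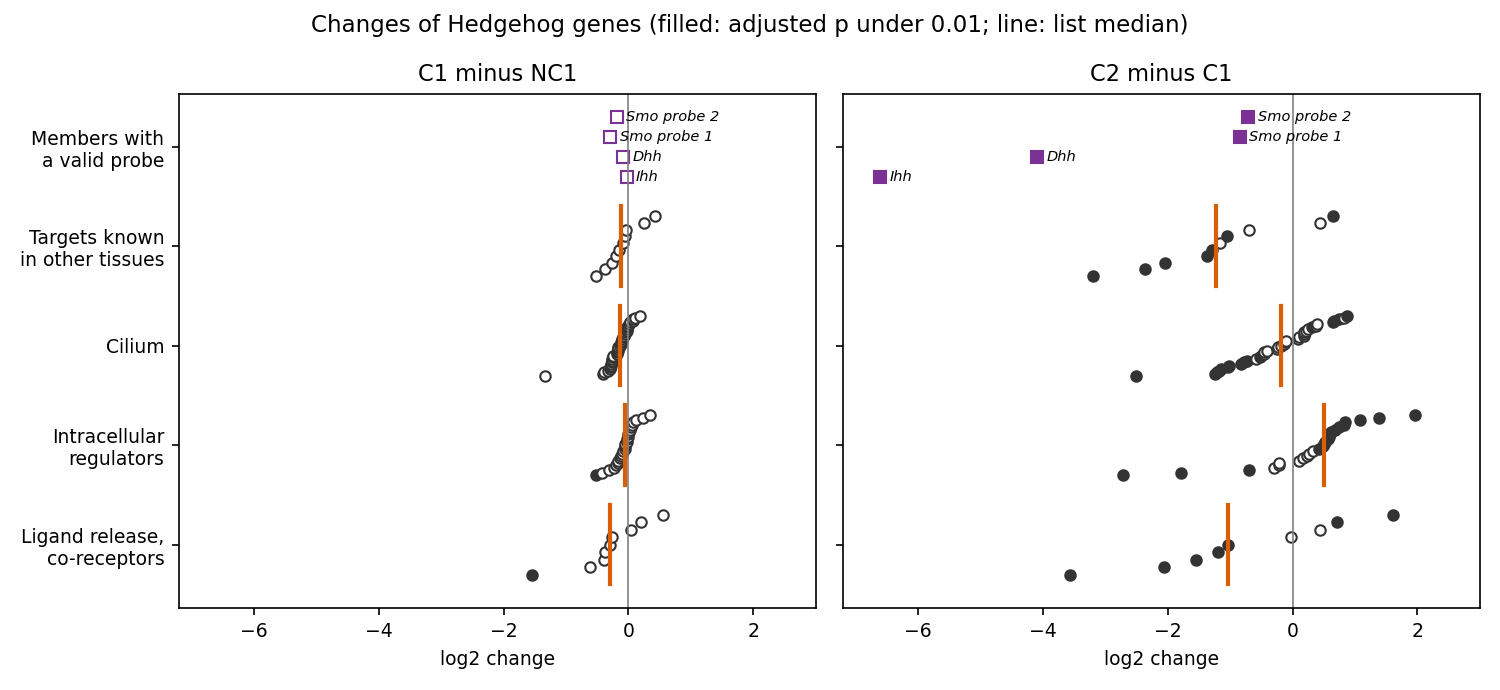
Log2 change (horizontal axis) from NC1 to C1 (left) and from C1 to C2 (right) of the valid genes of 4 Hedgehog lists and of the 4 valid member probes (rows). Circles and squares are filled where the limma adjusted p was under 0.01, and vertical lines mark the median of each list. Changes from NC1 to C1 lie near 0 for most genes, and from C1 to C2 *Ihh* (-6.61) and *Dhh* (-4.09) lie to the left of all genes of the lists.

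The 5 genes with the pattern most like that of *Ihh* over the 15 arrays were *St3gal5*, *Slco3a1*, *Slc35g1*, *Cnih2* and *Inhbb*, with Pearson's r of 0.995, 0.993, 0.992, 0.992 and 0.991. Their changes from C1 to C2 were -3.37, -3.22, -2.91, -2.83 and -4.72. Those most like *Smo* probe 1 were *Mansc1*, *Mical3*, *Atp1b1*, *Tmem8b* and *Hhat*, with r of 0.990, 0.983, 0.982, 0.981 and 0.980. These changed from C1 to C2 by -1.69, -1.66, -1.87, -1.46 and -1.04. Because the C2 arrays stood apart from the rest for all of these probes, r describes mainly the step to C2, and the arrays share their stage and slide.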

How the data were processed

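RNA of 15 cumulus cell pools was labelled with 1 dye and hybridized to Agilent arrays. The authors deposited the Feature Extraction output of each array (version 10.7.1.1 per the file headers, 10.5.1.1 in the submitters' processing notes), with background-subtracted intensity values on a linear scale, and a table of log2 values of probes present in at least 1 stage, used here to choose the members and as an alternative. For the main values, spots of a probe were averaged without control and outlier spots, log2 was taken, and the median of each array over the 17323 valid probes (well above background in 4 of 5 arrays of each stage) was subtracted. These probes had 20 missing values. Probes were named through RefSeq accessions (26055), then the authors' table (2770), and 10604 stayed unnamed. The number of arrays limits the precision.

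Tests used limma 3.58.1 under R 4.3.3, as 1 model over 15 arrays, two-sided, with the Benjamini-Hochberg adjustment over all valid probes at 0.01. For each list gene the probe with the highest mean was used. The fit was tested on simulated data. The change of *Ihh* minus *Dhh* was compared by exact permutation over 252 regroupings. A bound sets the mean of the bright stage against, per array of the dim stage, the higher of the lowest signal above background and that of the probe. Bounds rest on this convention, since a probe could exceed that lowest signal and still not be well above background. An example is *Gli1* in C2 replicate 5, at -4.23 where the lowest signal was -4.51. Named genes are the members, the 3 largest called rises and falls per list and step, the 5 genes most like *Ihh* and *Smo*, and markers. Other list genes were named after their values were seen. Members and lists were chosen with earlier results of these data known. Alternatives were other scalings, normexp background correction (offset 50), other filters, the authors' table, blocks for replicate number and slide, an unmoderated test, and leaving out arrays. The p-values measure the spread between pools of mice.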

Additional observations from a re-analysis of the deposited data

How the results depend on the processing

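The falls of *Ihh* and *Dhh* from C1 to C2 were called under all 28 alternatives, with changes of -6.82 to -6.30 and -4.24 to -3.78, and neither was called from NC1 to C1 under any. With the median of all gene probes, 271 probes were called from NC1 to C1 (437 in the reported fit), 2 member probes were called from C1 to C2 (4 reported), and the share of higher calls at that step was 74.7% in place of 53.3%. With spike-in scaling, 274, 4405 and 5157 probes were called for C1 minus NC1, C2 minus C1 and C2 minus NC1 (437, 8253 and 8916 reported), and from C1 to C2 4 intracellular regulators (18 reported) and 10 cilium genes (17 reported) were called. The share of higher calls was then 91.6% from NC1 to C1 (69.6% reported) and 38.9% from C1 to C2. With the deposited log2 table it was 67.7% from C1 to C2. *Evc2*, the 1 intracellular regulator called from NC1 to C1, left 0 calls with both of these scalings, with no filter, with the deposited log2 table and with slide as a fixed block (chosen after seeing the data), and the leave-one-out range was 0 to 1, the call being lost without C1 replicate 1.

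Wider filters admit dim members, which can enter through their bright stage alone, so the counts rise by construction. With probes present in at least 1 stage, 9 member probes passed the F-test, 1 was called from NC1 to C1 and 8 from NC1 to C2 (4, 0 and 4 reported). Of all probes under that filter, 52.4%, 2.94% and 52.4% were called. With no filter, 7 passed the F-test and 8 were called from NC1 to C2, where 9958 probes were called over all, on arrays of 39429 gene probes. With the deposited log2 table the counts were 8, 1 and 7. There, 442 probes were called over all from NC1 to C1 and 9126 from NC1 to C2, in a table of 20855 gene probes. The F-test share over all probes is not given for either setting, so these counts are not read as a result about the members. *Smo* probe 2 was called from NC1 to C2 except with the median of all gene probes (limma adjusted p = 0.0114) and the deposited log2 table (limma adjusted p = 0.0141). The bound of *Hhip* at NC1 over C2 was 2.28 on the log2 scale and 1.48 with normexp. Leaving out 1 array at a time (chosen after seeing the data) gave bounds of 2.14 to 2.43 for it, 1.49 to 2.46 for *Hhip* at C1 over C2, lowest without C1 replicate 4, and 0.99 to 1.29 for *Gli2*.

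The main fit did not pair arrays by replicate number, and whether the numbers pair NC1 with C1 was not settled. The correlation of same-numbered deviations ran from -0.241 to 0.348 over 15 pairs and exceeded 0.1 in 4. Of these 4, 3 were between NC1 and C1 (replicates 2, 4 and 5, r = 0.348, 0.342 and 0.345) and 1 between C1 and C2 (replicate 3, r = 0.213), and the array of the earlier stage then correlated best with its own number. With a replicate block, 4, 0, 4 and 4 member probes were called by the F-test and the 3 steps, and 404, 8059 and 8767 probes over all, which changed no call of a valid member probe. Leaving out NC1 replicates 1 and 2 together (chosen after seeing the data) changed the call of no valid member probe. Signal over background limits 6 of the 10 member probes, and where no array of a stage was above background the level is only a bound.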
